A study of Mus musculus with 9 samples.

Results

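Aquaporins are membrane channels for water, and some of them also carry glycerol. The results below describe 9 aquaporin genes, Aqp1, Aqp2, Aqp3, Aqp4, Aqp5, Aqp7, Aqp8, Aqp9 and Aqp11, of the 54532 genes of the deposited expression table. They were taken by their symbols. The list was chosen by measured values, the FPKM levels of these libraries in all 3 groups, among them the high Aqp4 level of the choroidal neovascularization group. For this reason the differences of all 9 genes between the groups are given as a description with no p-value. The remaining aquaporin genes of the table, Mip (aquaporin 0), Aqp6, Aqp12 and the pseudogene Aqp10-ps, are given beside them. The marker lists and other gene lists used below were also chosen with earlier results of these data known. Their p-values and counts of calls are therefore not an independent test.

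The study sequenced polyadenylated RNA from flat mounts of choroid and retina of C57BL/6 mice, in 3 groups of 3 libraries. One group was untreated. Another had choroidal neovascularization, or CNV, the growth of new vessels from the choroid seen in wet age-related macular degeneration, after which its samples are named. The libraries of the remaining group, titled Betp-Gel@Ran, were taken 3 months after an injection into the vitreous, and are called the gel group here. Their treatment label names the gel BetP-Gel without ranibizumab, the antibody fragment against VEGF-A that the series title pairs with a supramolecular hydrogel. The labels do not say whether those mice also had CNV, how CNV was induced or when the other groups were sampled. Nor do they state that each library was a different animal. The p-values therefore rest on the variation among these libraries, some of which may be technical.

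Aqp1 is a water channel of corneal endothelium, ciliary epithelium, red blood cells and many vessels. Aqp4 is the main water channel of glia, where dystrophin-associated proteins anchor it at the endfeet that wrap vessels and face the vitreous, and it is also found in fast skeletal muscle. Aqp5 and Aqp3 serve epithelia: Aqp5 the apical side of corneal epithelium and lacrimal gland, Aqp3 the basolateral side of many epithelia, where it also passes glycerol. Aqp2 is the vasopressin-regulated channel of the kidney collecting duct. Aqp7 and Aqp9 carry glycerol, in fat and in liver and leukocytes. Aqp8 carries water in several secretory and gut tissues, and Aqp11 is an unusual member found inside cells. Mip is the channel of lens fibers.

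Each library held 16990118 to 18753737 reads assigned to genes. Values are FPKM as deposited, fragments scaled to gene length and a library size. That size, recovered from the values, was 0.946 to 1.06 times the reads assigned to genes. Differences are of log2(FPKM + 1), which understates changes of low genes. Rpe65 of the pigment epithelium (79.3 FPKM) and Gnat1, the transducin subunit of the rods (1135 FPKM), were present in the untreated mean, as the tissue label implies. So was Krt12, the keratin of corneal epithelium, at 4677 FPKM, although the labels name no cornea. Untreated replicate 3 stood apart through lens genes: its 8 lens markers summed to 10808 FPKM, against 217 and 273 in the other untreated libraries. Skeletal muscle markers summed to 4792 to 5425 FPKM in the untreated group, 840.3 to 1441 in the CNV group and 1220 to 1439 in the gel group.

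Several of the genes are neighbors. On the mm10 build, Aqp2 lies on chromosome 15 from 99579055 to 99584547 and Aqp5 from 99590782 to 99594829, both on the plus strand, with 6234 bases between them. Aqp6 follows 6570 bases after Aqp5. Aqp7 (41033074 to 41048139) and Aqp3 (41092722 to 41098183) share the minus strand of chromosome 4, 44582 bases apart. Aqp1 lies alone on chromosome 6, from 55336432 to 55348555. No exon of another GENCODE M21 gene overlapped an exon of the members, for 0 of 9, and no pair of members shared a transcript run over 20 bases.

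The windows of 250 bases before the RefSeq starts (GRCm38.p6) are shown for Aqp2 and Aqp3, which were both lower in the CNV group, and for Aqp1, whose groups overlapped. Capitals mark a GC box (GGGCGG, either strand) or a TATA box (TATAAA), the right end of each line is the base before the start, and positions count back from it.
Aqp1, chr6:55336049-55336298, plus strand: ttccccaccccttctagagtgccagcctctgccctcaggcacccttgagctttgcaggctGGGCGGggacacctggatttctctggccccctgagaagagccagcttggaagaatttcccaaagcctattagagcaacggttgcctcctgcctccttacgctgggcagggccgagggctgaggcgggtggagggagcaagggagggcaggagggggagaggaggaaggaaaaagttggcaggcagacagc
Aqp2, chr15:99578806-99579055, plus strand: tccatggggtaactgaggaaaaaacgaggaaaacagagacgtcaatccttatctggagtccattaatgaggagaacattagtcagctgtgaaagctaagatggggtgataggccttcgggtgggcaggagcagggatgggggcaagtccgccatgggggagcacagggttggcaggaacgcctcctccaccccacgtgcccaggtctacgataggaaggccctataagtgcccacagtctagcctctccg
Aqp3, chr4:41098184-41098433, minus strand: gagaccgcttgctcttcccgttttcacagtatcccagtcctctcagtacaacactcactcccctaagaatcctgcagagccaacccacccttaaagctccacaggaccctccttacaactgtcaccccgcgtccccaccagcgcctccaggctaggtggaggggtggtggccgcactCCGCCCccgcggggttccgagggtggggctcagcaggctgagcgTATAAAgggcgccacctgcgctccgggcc
The Aqp3 window held a TATA box at -29 and a GC box at -73, the Aqp1 window a GC box at -190, and the Aqp2 window neither. GC content was 62% for Aqp1, 55.6% for Aqp2 and 64% for Aqp3. The corresponding window of Aqp5, 78.4% GC with GC boxes at -77 and -34, lay in annotated exons for 246 of its 250 bases and is not shown. Of 32851 RefSeq windows of this length, 32.7% held a GC box and 12.4% a TATA box. An AP-1 motif (TGANTCA, in 6.75% of all windows) occurred among members only at -24 of the second start of Aqp9, and a cyclic AMP response element (TGACGTCA, in 1.55%) in none of the 10 member windows, which covered 8 of the 9 genes. Such matches describe the letters in these windows and are not evidence of binding.

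The order of the aquaporins was led by the same 3 genes in each group: Aqp5, then Aqp3, then Aqp1, with no overlap between neighbors in that order. The 9 members together summed to 1953 to 2381 FPKM in the untreated group, 902 to 1382 in the CNV group and 1665 to 1956 in the gel group. Aqp5 made up 66.3% to 70.0% of that sum in untreated libraries, 50.1% to 61.8% in CNV libraries and 61.3% to 65.3% in gel libraries. Aqp4 made up 0.0881% to 0.137%, 1.40% to 3.02% and 0.123% to 0.208%. In the untreated group Aqp4 and Aqp2 overlapped in level, and in the CNV group Aqp4 stood alone in the fourth place, over an order of magnitude above Aqp2. Aqp11, Aqp9, Aqp8, Aqp7 and Aqp6 overlapped with their neighbors at the bottom of the order in every group.

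**Figure D1:**
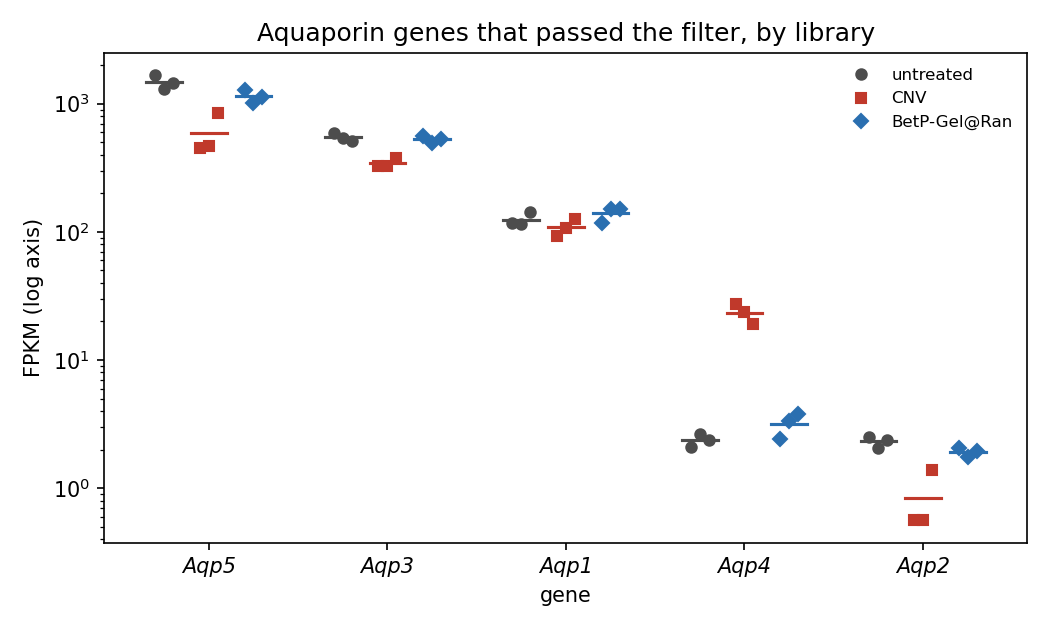
FPKM (log axis) of the 5 aquaporin genes that passed the filter, with 1 point per library and a bar at the mean of each group of 3. Aqp4 sits between 19.3 and 27.2 FPKM in the CNV libraries and between 2.10 and 3.76 in all others, while Aqp5, Aqp3 and Aqp2 are lowest in the CNV group.

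Aqp4, the glial channel, was about an order of magnitude higher in the CNV group than in either other group. It measured 2.10, 2.67 and 2.38 FPKM in untreated replicates 1 to 3, from 181, 241 and 195 reads. The CNV libraries had 27.2, 23.8 and 19.3 FPKM, from 2742, 2124 and 1827 reads, and the gel libraries 2.40, 3.32 and 3.76 FPKM, from 214, 305 and 325 reads. Every CNV library was above every other library, and the gel libraries overlapped with the untreated ones, with gel replicates 2 and 3 above them. The means were 2.38 ± 0.286 (SD, n = 3), 23.4 ± 3.99 and 3.16 ± 0.695 FPKM, so the CNV mean was 9.84-fold the untreated mean and 7.41-fold the gel mean.

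On the log2 scale the CNV group was 2.84 above the untreated group (SE 0.15), rank 29 from the highest difference among the 14086 genes tested, and the gel group was -2.55 from the CNV group, rank 21 from the lowest. The gel group differed from the untreated group by 0.29 (SE 0.15). Without untreated replicate 3 the CNV difference was again 2.84, and without CNV replicate 3, the lowest of its group, it was 2.97. Across 19 other ways of processing it lay between 2.73 and 3.29.

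Marker genes of cells that carry Aqp4 did not share one pattern. The 9 Müller glia markers, of which none was at 0 in a whole group, summed to 879.6 to 959 FPKM in untreated libraries, 455 to 528 in CNV libraries and 619.9 to 656 in gel libraries, so Aqp4 as a percentage of that sum was 0.226% to 0.278%, 3.65% to 5.98% and 0.379% to 0.574%. By limma's moderated test with Benjamini-Hochberg adjustment over all tested genes, 2 of the 9 rose in CNV and 2 fell: the enzyme Glul, which makes glutamine from glutamate in these glia, fell in CNV, at 300.1 ± 21.9 against 686 ± 42.0 FPKM (log2 -1.19, adjusted p = 2.02e-05), and Sox9, a glial transcription factor, rose to 4.71 ± 0.807 FPKM against 1.49 ± 0.251 untreated (log2 1.19, limma adjusted p = 0.000169). Of all genes tested, 44.6% were called in this comparison, 22.5% higher and 22.1% lower. Glul made up most of the Müller glia sums, with means of 686 FPKM untreated, 300.1 in CNV and 419.6 in gel. In these bulk libraries, fewer cells of a type and less RNA per cell cannot be told apart.

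All 10 reactive glia markers rose in CNV by limma, and none fell (the same 10 at an unadjusted p under 0.05 and by limma voom, and 9 to 10 over the alternatives). Higher calls made up 22.5% of all genes tested. The part of cells other than glia in these markers was not tested. Their sums were 141 to 156 FPKM untreated, 471 to 894.8 in CNV and 257 to 276 in gel. The marker Serpina3n, with means of 7.65 FPKM untreated, 349 in CNV and 63.8 in gel, made up most of the mean CNV sum of 641 FPKM. Gfap, the intermediate filament of astrocytes and reactive Müller glia, was 14.5 ± 1.34 FPKM untreated, 34.9 ± 11.9 in CNV and 37.4 ± 3.70 in gel, and it rose in both (log2 1.15, limma adjusted p = 0.00307, and log2 1.31, adjusted p = 0.0028). Between gel and CNV, Gfap did not pass (log2 0.16, limma adjusted p = 0.669), while Socs3, a feedback inhibitor of cytokine signaling, fell from 17.8 ± 4.44 to 4.22 ± 0.555 FPKM (log2 -1.83, adjusted p = 0.000807). Gel libraries thus had Gfap near the CNV level beside Aqp4 near the untreated level.

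All 8 skeletal muscle markers fell in CNV, in the opposite direction to Aqp4, and all 8 were also lower in gel than in untreated libraries, where Aqp4 overlapped. By limma 22.1% of all genes tested were called lower in CNV and 18.1% in gel, each against untreated. Acta1, skeletal muscle actin, was 1558 ± 118 FPKM untreated, 171 ± 54.3 in CNV and 197 ± 23.5 in gel (log2 -3.22 and -2.98 from untreated, limma adjusted p = 8.06e-06 and 2.12e-05). Leukocyte markers were higher in CNV: all 9 macrophage and microglia markers rose (8 to 9 over the alternatives), where 22.5% of all genes tested were called higher. Their sum went from 375 to 397 FPKM up to 1313 to 1912, and in gel it was 739.9 to 946. The part of each of these cell types in the Aqp4 level was not tested.

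**Figure D2:**
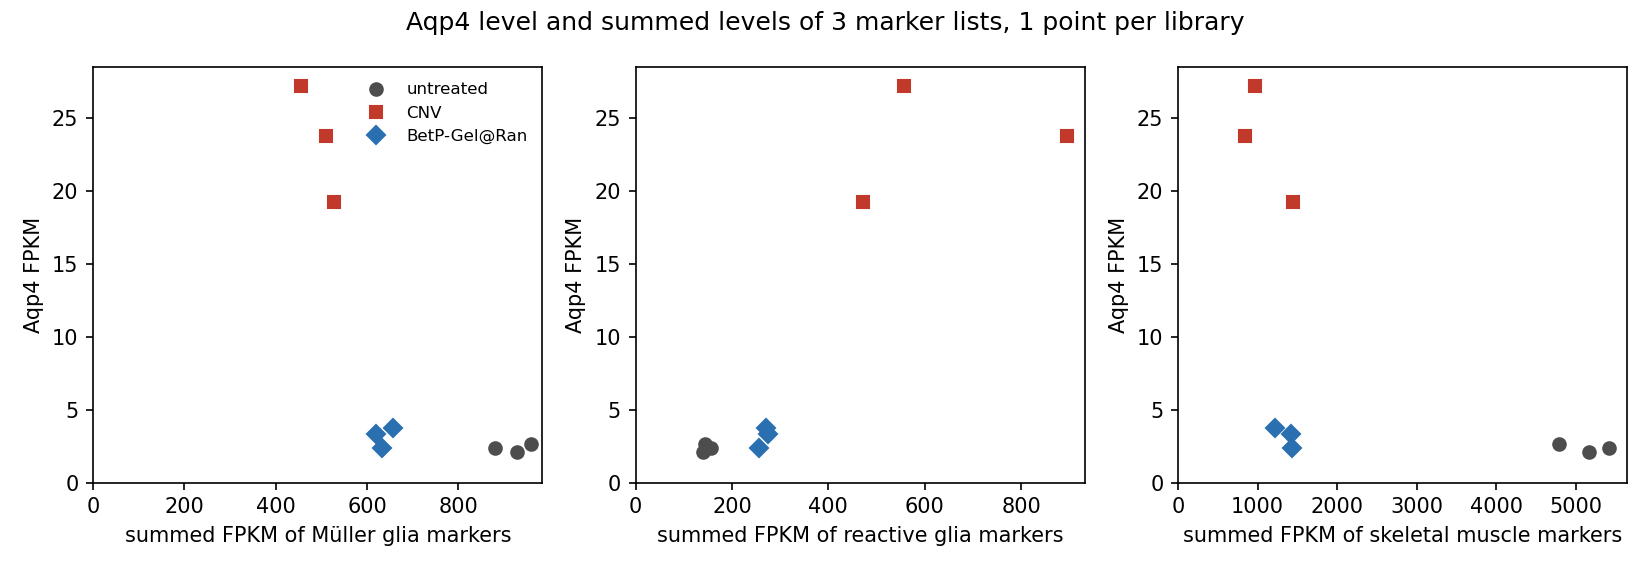
Aqp4 FPKM (vertical axis) against the summed FPKM of 9 Müller glia, 10 reactive glia and 8 skeletal muscle markers (horizontal axes), 1 point per library. The 3 CNV libraries hold the highest Aqp4 together with the lowest Müller glia sums (455 to 528 FPKM) and the highest reactive glia sums (471 to 894.8 FPKM). Glul makes up most of the Müller glia sums, and Serpina3n most of the mean reactive glia sum in CNV.

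The genes whose profile over the 9 libraries was most like that of Aqp4 included Anxa10, an annexin, and Adam8, a membrane metalloprotease of leukocytes and other cells. Likeness was the root mean square difference of log2(FPKM + 1) after each gene was centered on its own mean. It was 0.185 for Anxa10 and 0.228 for Adam8 on the log2 scale, against a median of 1.30 over 12667 genes compared. Anxa10 had 0 FPKM in every untreated library, a mean of 5.35 ± 1.20 in CNV and 0.0335 ± 0.0379 in gel. Adam8 had means of 0.282 FPKM untreated, 8.77 in CNV and 0.811 in gel. These genes were found by their likeness, so their differences are not tested again here.

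The proteins that hold Aqp4 at the endfoot were called in both directions, in shares near those of all genes tested. Of 14 such partners, 12 passed the filter, and by limma 3 rose and 3 fell in CNV, where 22.5% of all genes tested were called higher and 22.1% lower (1 to 3 and 1 to 4 over the alternatives, 1 rise without untreated replicate 1 or 3 or CNV replicate 1 or 2), with a median log2 difference of -0.095 against 0.0057 for all genes tested. Both dystrobrevins of the list fell, Dtna from 1.65 ± 0.107 to 0.754 ± 0.0932 FPKM (log2 -0.60, limma adjusted p = 0.00138) and Dtnb from 3.43 ± 0.216 to 2.45 ± 0.261 FPKM (log2 -0.36, adjusted p = 0.00926). Dtna is also a component of the muscle membrane, and muscle markers fell in the same libraries, whose part in its level was not tested.

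The 3 that rose were Sntb1, Agrn and Utrn. Sntb1, a syntrophin, went from 4.10 ± 1.07 to 6.19 ± 0.689 FPKM (log2 0.51, limma adjusted p = 0.0174, and 0.0607 without CNV replicate 2). Agrn, the basement membrane proteoglycan agrin, was higher by log2 0.38 (limma adjusted p = 0.0275), a call that was lost without untreated replicate 1 or 3 or CNV replicate 1 or 2 (adjusted p = 0.0579 to 0.096). Utrn, the dystrophin relative utrophin, was higher by log2 0.24 (limma adjusted p = 0.038), which 9 of 19 alternatives lost, among them leaving out any library but CNV replicate 2 and gel replicate 1 (adjusted p = 0.053 to 0.109). Dag1, the dystroglycan core, was 9.93 ± 1.39 FPKM untreated and 11.1 ± 0.740 in CNV (log2 0.15, adjusted p = 0.245).

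Kcnj10, the glial potassium channel Kir4.1 that shares the endfoot with Aqp4, had its lowest mean in CNV, where Aqp4 had its highest. It was 4.18 ± 0.735 FPKM untreated, 3.04 ± 0.818 in CNV and 6.73 ± 0.947 in gel. The CNV difference of log2 -0.37 did not pass (limma adjusted p = 0.0971), though it did without untreated replicate 3 (0.0491) or CNV replicate 3 (0.0287). Between gel and CNV it rose (log2 0.95, limma adjusted p = 0.011), where 14.1% of all genes tested were called, 5.81% higher and 8.27% lower. In that comparison 4 of the 12 partners rose and none fell (5 and none at an unadjusted p under 0.05 and by limma voom). Beside Kcnj10 they were Mlc1, a glial membrane protein (log2 0.64, adjusted p = 0.0467), Utrn (log2 0.36, limma adjusted p = 0.024) and Dtnb (log2 0.32, adjusted p = 0.0454), whose calls were lost in 11 of 19, 7 of 19 and 10 of 18 alternatives, with adjusted p up to 0.153, 0.0797 and 0.146. Leaving out CNV replicate 1, CNV replicate 2 or any gel library lost all 3 of these calls, and leaving out untreated replicate 1 lost those of Mlc1 and Dtnb.

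Aqp5, the apical channel of corneal and glandular epithelium, was the most abundant aquaporin and was lowest in the CNV group. It measured 1667, 1294 and 1439 FPKM in untreated replicates 1 to 3, 452, 471 and 854 in CNV replicates 1 to 3, and 1277, 1020.2 and 1118 in gel replicates 1 to 3. All CNV libraries were below all others, CNV replicate 3 lay well above the other CNV libraries, and every gel library was below every untreated one. The means were 1467 ± 188 (SD, n = 3), 592 ± 226 and 1138 ± 129.5 FPKM, so the untreated mean was 2.48-fold and the gel mean 1.92-fold the CNV mean. The log2 difference of CNV from untreated was -1.36 (SE 0.23), or -1.66 without CNV replicate 3 and -1.37 without untreated replicate 3.

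Aqp3, the basolateral water and glycerol channel, had the same order of groups with a smaller difference. It measured 593, 538 and 511 FPKM untreated, 328, 325 and 380.3 in CNV, and 557, 489.6 and 533 in gel. CNV libraries were below all others, and gel libraries overlapped with untreated ones. The means were 547 ± 41.4, 344 ± 31.0 and 526 ± 34.1 FPKM (SD, n = 3), and the log2 difference of CNV from untreated was -0.67 (SE 0.10), with -0.74 to -0.57 over the 19 alternatives.

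Aqp2, the collecting duct channel, is not known as a main channel of the eye, and its reads were few. It had 60, 52 and 55 reads untreated, 16, 14 and 37 in CNV, and 51, 45 and 47 in gel, or 2.49, 2.06 and 2.40, then 0.569, 0.562 and 1.40, then 2.05, 1.76 and 1.95 FPKM. CNV libraries were again below all others, with CNV replicate 3 the highest of them as for Aqp5. Gel libraries were below untreated ones without overlap, but only narrowly, with 51 reads in gel replicate 1 and 52 in untreated replicate 2. Aqp2 reached 1 FPKM in 7 libraries and passed the filter chiefly through the untreated and gel groups. Its log2 difference of CNV from untreated was -0.88 (SE 0.16) with a pseudocount of 1 and -1.47 with 0.1. Per 1000 reads of its neighbor Aqp5, there were 0.816 to 0.911 Aqp2 reads untreated, 0.651 to 0.894 in CNV and 0.877 to 0.952 in gel, and the CNV range overlapped with those of both other groups.

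Of the 9 members, Aqp2, Aqp3 and Aqp5 were thus lower and Aqp4 higher in CNV than in untreated libraries without overlap, and Aqp1, Aqp7, Aqp8, Aqp9 and Aqp11 overlapped. Among all genes tested, 54.4% did not overlap between these groups, 27.7% higher and 26.7% lower in CNV. Between gel and CNV, Aqp2, Aqp3 and Aqp5 were higher and Aqp4 and Aqp11 lower without overlap, where 36.9% of all genes tested did not overlap. Aqp7, Aqp8, Aqp9 and Aqp11 were not among the genes tested, so these shares do not cover them. The nearest Aqp11 libraries were gel replicate 1 with 41 reads and CNV replicate 2 with 44. The members were chosen with these differences known, and both comparisons share the CNV libraries.

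**Figure D3:**
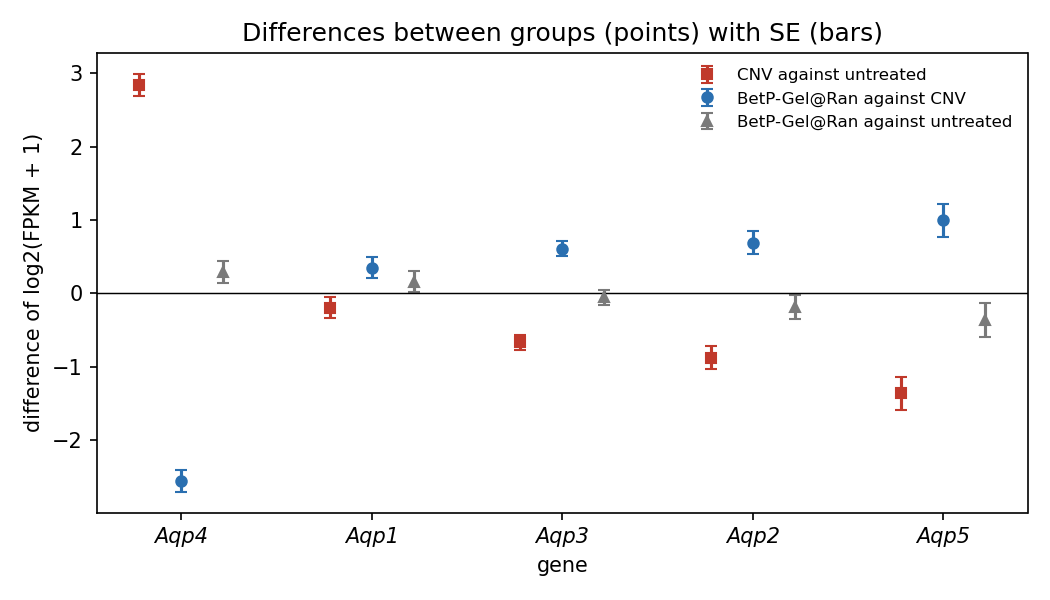
Differences of log2(FPKM + 1) (vertical axis) of 5 aquaporin genes in the 3 comparisons, as points with bars of 1 SE from the fit to 9 libraries. Aqp4 lies at 2.84 for CNV against untreated and -2.55 for gel against CNV, Aqp5 at -1.36 and 1.00, and the differences of gel from untreated lie between -0.36 and 0.29.

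Corneal epithelium markers were lower in the same CNV libraries. Of the 10 markers, none at 0, 5 fell and 1 rose in CNV by limma, where 22.1% of all genes tested were called lower and 22.5% higher. Their sum was 17557 to 20608 FPKM untreated, 8481 to 10209 in CNV and 13176 to 15693 in gel. Krt12 fell from 4677 ± 552 to 1673 ± 496 FPKM (log2 -1.51, adjusted p = 0.000208), as did Aldh3a1, the dehydrogenase that is a major soluble protein of the cornea, from 6055 ± 528 to 1821 ± 777 FPKM (log2 -1.81, limma adjusted p = 0.000395). Krt14, a keratin of basal and limbal cells, rose from 295 ± 18.7 to 1558 ± 891 FPKM (log2 2.17, adjusted p = 0.00716), so the markers of this epithelium did not all go one way. In gel against CNV 8 of the 10 rose, and Krt14 fell (log2 -2.32, limma adjusted p = 0.0221, and 0.0743 to 0.0797 without CNV replicate 1 or 2 or gel replicate 2). The number that rose ranged from 4 to 9 of 10 over the alternatives, and was 4 without CNV replicate 1 or 2 or any gel library. Gel against CNV had 5.81% of all genes tested called higher and 8.27% lower.

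Set against that marker sum, Aqp5 and Aqp3 differed. The sum includes Krt14, which was 282 to 316 FPKM in untreated libraries and 553 to 2252 FPKM in CNV libraries, and its part in these percentages was not tested. Aqp5 amounted to 8.09%, 7.37% and 7.98% of the sum in untreated replicates 1 to 3, 5.33%, 5.01% and 8.36% in CNV, and 8.14%, 7.74% and 7.90% in gel. CNV replicates 1 and 2 were below all other libraries and CNV replicate 3 above all of them. Aqp3 amounted to 2.88%, 3.07% and 2.84% untreated, 3.87%, 3.46% and 3.73% in CNV, and 3.55%, 3.72% and 3.77% in gel, higher in every CNV and gel library than in any untreated one. Aqp5 was 2.40 to 2.81 times Aqp3 in untreated libraries, 1.38 to 2.24 times in CNV and 2.08 to 2.29 times in gel. The part of the amount of corneal tissue in these levels was not tested.

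**Figure D4:**
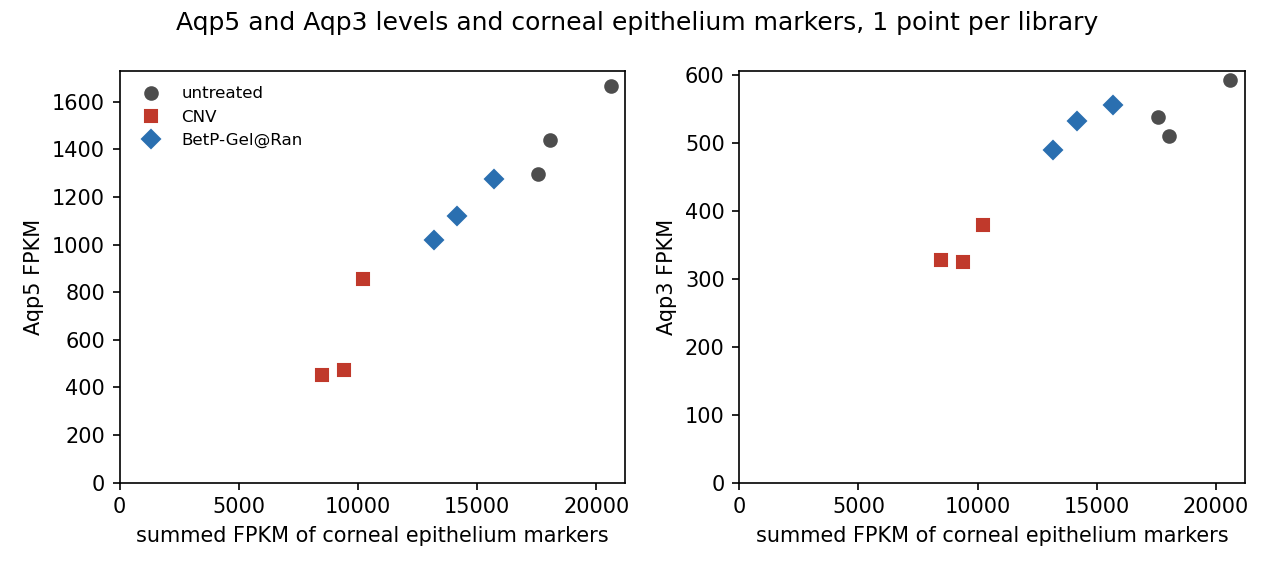
Aqp5 and Aqp3 FPKM (vertical axes) against the summed FPKM of 10 corneal epithelium markers (horizontal axes), 1 point per library. CNV libraries have the lowest marker sums (8481 to 10209 FPKM) and the lowest Aqp5 and Aqp3, and gel libraries lie between them and the untreated libraries on the horizontal axis.

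Of 7 secretory gland markers, 5 passed the filter, and by limma Pigr, Ltf and Wfdc2 rose and Elf5, named after its values were seen, fell in CNV, where Aqp5 was lowest. Over the alternatives 3 rose and 0 to 1 fell. Of all genes tested, 22.5% were called higher and 22.1% lower. Ltf, lactoferrin, rose to 209 ± 52.5 FPKM against 12.3 ± 3.69 untreated (log2 3.98, limma adjusted p = 4.36e-05) and Wfdc2, a secreted epithelial protein, from 80.0 ± 17.4 to 430 ± 65.2 FPKM (log2 2.42, adjusted p = 0.000264). Ltf is also a granule gene of neutrophils, whose 9 markers summed to 24.8 to 38.4 FPKM untreated, 323 to 767 in CNV and 13.7 to 124 in gel. The sums of the 7 gland markers, made up mostly of Ltf and Wfdc2, were 78.0 to 114 FPKM untreated, 555 to 746 in CNV and 93.7 to 199 in gel. No marker of this list was at 0 in a whole group, and the part of gland cells in the Aqp5 level, and of neutrophils in that of Ltf, was not tested.

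The genes most like the epithelial channels over the 9 libraries were as follows. For Aqp5 they were Ptgr1, a prostaglandin reductase (root mean square difference 0.112 on the log2 scale), Krt12 (0.116) and Fam83a (0.124), against a median of 0.656 over 12667 genes. For Aqp2 they were Gsta4, a glutathione transferase (0.0375), Sdr42e1 (0.0604) and the chloride channel family protein Clic3 (0.0845), with a median of 0.453. Gsta4 had means of 3038 ± 202 FPKM untreated, 1656 ± 398 in CNV and 2618 ± 49.2 in gel, a level far above that of Aqp2. For Aqp3 they were Ezr, the membrane linker ezrin (0.0676), the protease Capn1 (0.0700) and Dhcr7, the last enzyme of cholesterol synthesis (0.0729), with a median of 0.363.

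Aqp1, the channel of corneal endothelium, ciliary epithelium and vessels, had the smallest CNV differences of the 5 genes that passed the filter. It measured 116, 115 and 142 FPKM untreated, 93.6, 106 and 127 in CNV, and 118, 149.9 and 149.7 in gel. All pairs of groups overlapped. The means were 124 ± 15.6, 109 ± 16.9 and 139 ± 18.5 FPKM (SD, n = 3), and the log2 difference of CNV from untreated was -0.19 (SE 0.14), or -0.094 without untreated replicate 3 and -0.31 without CNV replicate 3. Gel differed from CNV by 0.35.

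Marker lists for cells that carry Aqp1 were examined beside it. Of 8 corneal stroma and endothelium markers, 6 fell and 1 rose in CNV (3 to 6 and 0 to 1 over the alternatives, 3 falls without CNV replicate 2, and no rise without untreated replicate 1 or 2 or any CNV library), and their sum was 1202 to 1539 FPKM untreated, 507 to 688 in CNV and 713 to 933 in gel. Among all genes tested, 44.6% were called in CNV against untreated, 22.1% lower and 22.5% higher. Angptl7, an angiopoietin-like protein of the corneal stroma, fell from 426 ± 73.4 to 58.3 ± 15.1 FPKM (log2 -2.86, limma adjusted p = 2.3e-05). Aqp1 as a percentage of the stroma and endothelium marker sum was 8.71% to 9.53% untreated, 14.8% to 20.99% in CNV and 16.0% to 18.4% in gel. Of 8 endothelial markers 7 were tested and limma called none in CNV (none at an unadjusted p under 0.05 and none by limma voom, with at most 1 call in any alternative, such as without CNV replicate 1), with sums of 14.7 to 17.6, 12.6 to 15.7 and 16.1 to 22.0 FPKM. Red blood cell markers, which Aqp1 shares cells with, summed to 3508 to 5451 FPKM untreated, 6421 to 19409 in CNV and 3407 to 11701 in gel. None of the markers of these lists was at 0 in a whole group, and the part of these cells in the Aqp1 level was not tested.

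Aqp1's nearest profiles were Grcc10 (0.0619), Scrn3 (0.0822) and Znhit6 (0.0827 on the log2 scale, against a median of 0.293). All 3 were genes of low level, with means of 4.13 to 10.9 FPKM over the groups.

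From untreated to gel, Aqp1 differed by log2 0.16 (SE 0.14), Aqp2 by -0.18 (SE 0.16) and Aqp5 by -0.36 (SE 0.23). Aqp3 differed by -0.056 (SE 0.099), a difference whose sign turned with quantile normalization (0.018), with other scalings (0.036 for FPKM divided by its sum and 0.012 for reads scaled to their own total) and without untreated replicate 1 (0.0029).

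Gel libraries were below untreated ones without overlap for Aqp2 and Aqp5, as were 25.4% of all genes tested, 50.7% being without overlap in either direction. For Aqp2 the nearest libraries had 51 reads (gel replicate 1) and 52 reads (untreated replicate 2). In the same comparison corneal epithelium markers were called in both directions, 4 higher and 2 lower of 10, where 34.2% of all genes tested were called (0 to 5 lower over the alternatives, 5 without CNV replicate 3 and 0 without any untreated library or gel replicate 2 or 3), and Krt12 was 3516 ± 44.5 FPKM in gel against 4677 ± 552 untreated (log2 -0.41, limma adjusted p = 0.111).

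Aqp7, Aqp8, Aqp9 and Aqp11 reached 1 FPKM in 0 libraries and were not tested. Aqp11, the intracellular member, had 45, 62 and 35 reads untreated, 59, 44 and 48 in CNV, and 41, 39 and 29 in gel, or 0.181 to 0.371 FPKM over all libraries. Gel libraries were below all CNV libraries, and both overlapped with the untreated ones.

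Aqp9, the glycerol channel of liver and leukocytes, had 5, 11 and 3 reads untreated, 25, 33 and 7 in CNV, and 4, 17 and 12 in gel. CNV replicates 1 and 2 were the highest of the 9 libraries, while CNV replicate 3 lay inside the range of the other groups. All 5 neutrophil markers that passed the filter, of 9, rose in CNV by limma and fell from CNV to gel. Of all genes tested, 22.5% were called higher in CNV than untreated and 8.27% lower in gel than CNV. The rises ranged from 2 to 5 over the alternatives. The falls ranged from 2 to 5 over the alternatives, with 2 or 3 without CNV or gel replicate 1 or 2, and the CNV sums of the 9 genes exceeded those of all other libraries. S100a8, a neutrophil calcium-binding protein, had means of 3.77 ± 0.970, 154 ± 62.7 and 14.7 ± 19.9 FPKM. Mpo was at 0 in all groups and Elane in the untreated and gel groups, both being made before neutrophils leave the marrow. CNV replicates 1 and 2 had the highest neutrophil sums as well as the highest Aqp9 counts, and the part of these cells was not tested.

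Aqp8 had 1, 3 and 6 reads untreated, 1, 12 and 2 in CNV, and 1, 2 and 0 in gel. Aqp7, the glycerol exit channel of fat cells, had 0, 1 and 6 reads untreated, 1, 0 and 4 in CNV, and 1, 3 and 1 in gel. A count of 0 allows up to 3 reads, or 0.0605 to 0.0625 FPKM for Aqp7 and 0.112 for Aqp8 in the libraries concerned, for counting error only. The read counts of the groups overlapped for both genes, and their differences were not tested. Of 7 adipocyte markers 4 passed the filter, with summed levels of 8.86 to 18.8 FPKM untreated, 8.75 to 10.4 in CNV and 5.63 to 11.9 in gel, and none was at 0 in a whole group.

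**Figure D5:**
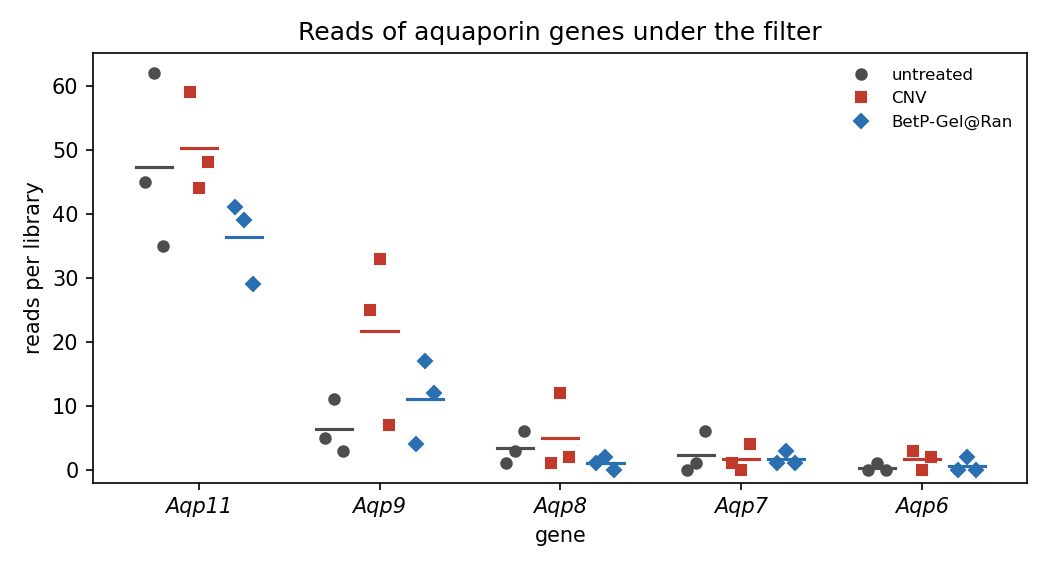
Reads per library (vertical axis) of Aqp11, Aqp9, Aqp8, Aqp7 and Aqp6, with 1 point per library and a bar at the mean of each group of 3. Aqp9 has 25 and 33 reads in CNV replicates 1 and 2 and at most 17 elsewhere, and the groups of the other genes lie within 0 to 62 reads.

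Mip, the lens channel, was highest in the libraries with the highest lens marker sums. It was 1.04, 1.497 and 63.7 FPKM in untreated replicates 1 to 3, 0.424, 0.213 and 0.6002 in CNV, and 8.14, 27.6 and 9.06 in gel. Untreated replicate 3, whose lens markers stood apart, held 2206 of its 2301 untreated reads. CNV libraries were below all others, gel libraries were above the other untreated ones, and gel against untreated was not called (log2 1.00, 95% interval -1.87 to 3.86, limma adjusted p = 0.569), though it passed without untreated replicate 3 (adjusted p = 0.0047). Its nearest profiles were the lens genes Grifin, Lim2 and Cryba4. Aqp6 had at most 3 reads in any library, Aqp12 had 0 in all 9, which allows 0.139 to 0.171 FPKM, and Aqp10-ps had 5 reads in CNV replicate 1 alone.

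Genes of the response to osmotic stress and cell swelling moved in both directions in CNV. Of 14 such genes 12 passed the filter, and by limma 6 rose and 3 fell (3 to 6 and 2 to 3 over the alternatives), with a median log2 difference of 0.27 against 0.0057 for all genes tested. Of all genes tested, 22.5% were called higher and 22.1% lower, so the falls were near the general share. The rises included Nfat5, the transcription factor of tonicity (1.53 ± 0.108 to 2.32 ± 0.265 FPKM, log2 0.39, adjusted p = 0.00457), and 3 kinases of the chloride cotransporter pathway, Wnk1 (log2 0.65, adjusted p = 0.000101), Stk39 (log2 0.47, adjusted p = 0.00167) and Oxsr1 (log2 0.42, adjusted p = 0.00193). Slc5a3, the inositol transporter, and Lrrc8a, a subunit of the volume-regulated anion channel, rose by log2 0.45 and 0.44 (limma adjusted p = 0.0208 and 0.0217), and 4 of 18 alternatives lost each call. For Slc5a3 these included leaving out untreated replicate 1 or 2 or CNV replicate 2 (adjusted p = 0.0543 to 0.0738), and for Lrrc8a untreated replicate 2 or 3 or CNV replicate 1 or 2 (0.0654 to 0.0752).

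The osmolyte genes that fell were Slc6a6, the taurine transporter, from 69.9 ± 11.97 to 30.1 ± 2.79 FPKM (log2 -1.18, limma adjusted p = 0.000121), and Akr1b3, the sorbitol-making aldose reductase, from 36.1 ± 2.47 to 24.0 ± 2.17 FPKM (log2 -0.57, adjusted p = 0.00112). Both are targets of Nfat5 in other tissues. Lrrc8b was lower by log2 0.30 (limma adjusted p = 0.0406), a call that 13 of 19 alternatives lost, among them leaving out any library but untreated replicate 3 (adjusted p = 0.052 to 0.14). In gel, Nfat5, Wnk1 and Oxsr1 were also above untreated (log2 0.48, 0.85 and 0.59, limma adjusted p = 0.00281, 6.06e-05 and 0.000655), while Stk39 fell from CNV to gel (log2 -0.52, adjusted p = 0.00878) to 6.36 ± 0.243 FPKM, against 6.61 ± 0.205 untreated.

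Genes that release or use glycerol, the second substrate of Aqp3, Aqp7 and Aqp9, were all tested, and 3 of 8 fell in CNV while none rose, where 22.1% of all genes tested were called lower and 22.5% higher (1 rose at an unadjusted p under 0.05 and none by limma voom, and Gk passed with 3 other scalings and without CNV replicate 3, adjusted p = 0.0215 to 0.0406). Gpd1, the cytosolic glycerol phosphate dehydrogenase, fell from 8.66 ± 0.916 to 2.33 ± 0.231 FPKM (log2 -1.53, limma adjusted p = 4.34e-05). Pnpla2, the first lipase of fat stores, fell from 29.7 ± 1.96 to 14.6 ± 2.11 FPKM (log2 -0.98, adjusted p = 8.94e-05), and Lipe, hormone-sensitive lipase, by 0.43 (adjusted p = 0.00594). Gk, the glycerol kinase, was 13.2 ± 0.0683 and 15.4 ± 1.91 FPKM (log2 0.20, adjusted p = 0.0943). Gpd1 and Pnpla2 were also lower in gel than untreated, at 2.42 ± 0.621 and 17.0 ± 0.888 FPKM (log2 -1.51 and -0.77 from untreated, limma adjusted p = 0.000104 and 0.000739). Both are abundant in skeletal muscle, whose markers were lower in both of these groups. Of 4 adipocyte markers tested, Plin4 alone was called lower in each group by limma (0 to 1 over the alternatives), and none was called higher. Among all genes tested, 22.1% were called lower in CNV and 18.1% in gel. The part of muscle or fat cells in these falls was not tested.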

How the data were processed

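The authors deposited 1 table of FPKM for 54532 genes and 9 libraries. Per the labels' protocols, RNA was extracted with Trizol, selected with poly-T beads from 1 µg and made into libraries with a NEBNext Ultra kit. Per the submitters' processing notes, reads were counted with HTSeq 0.6.0 on mm10. No aligner name was found in the sources used here. FPKM times gene length gave whole reads for 100% of values within a tolerance of 0.05. Replicates of a group differed by more than sampling noise (chi-square per gene 7.79 to 40.1).

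The members and gene lists were chosen with earlier results of these data known. log2(FPKM + 1) was fitted with limma 3.58.1 (R 4.3.3, statmod 1.5.0) with 1 mean per group over all 9 libraries, trend and robust options, two-sided tests and Benjamini-Hochberg adjustment over the 14086 genes that reached 1 FPKM in 3 or more libraries, at a threshold of 0.05. Of the 9 members 5 passed; their p-values are not given, since the choice of members used all 3 groups, also for gel against untreated, which the design had set to be tested. The fit was tested on simulated counts drawn independently with the same spread for every gene. Those counts lacked the differences of lens, cornea and muscle content between libraries, so that test does not vouch for the calls made here. Exact tests of 3 against 3 libraries cannot go below p = 0.1 and were not used. Named genes were all members, all genes of the anchoring, osmotic and glycerol lists, and of other lists the first 4 tested and the 2 with the smallest p; a few of all these are not reported here. Promoter windows came from RefSeq (GRCm38.p6), and coordinates of 8 of 9 members were identical to GENCODE M21. Alternatives changed the pseudocount, filter, scaling, groups fitted, moderation, replicate block and single libraries, and 1, reads scaled to their own total, was chosen after seeing the data.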

Additional observations from a re-analysis of the deposited data

How the results depend on the processing

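Over 18 or 19 alternatives, Aqp4 in CNV against untreated lay between 2.73 and 3.29, Aqp5 between -1.66 and -1.20 and Aqp2 between -1.57 and -0.77 on the log2 scale, each with 1 sign. Of the differences of Aqp1, Aqp2, Aqp3, Aqp4 and Aqp5, which alone were refitted under most alternatives, 1 turned, Aqp3 in gel against untreated: 0.0184 with quantile normalization, 0.0355 with FPKM divided by its sum, 0.0123 with reads scaled to their own total and -0.1035 to 0.0029 with 1 library left out, above 0 without untreated replicate 1, the cause of which was not tested. Counts of genes called that moved by over 1.5 times were as follows. With a filter of 5 FPKM, which tests fewer genes, 1735 instead of 3166 were higher in CNV than untreated and 1337 instead of 2265 higher in gel. For gel against CNV, 818 higher and 1165 lower became 263 and 590 with no filter and 537 and 652 with only the 2 groups compared, and 523 were higher with a replicate block. With FPKM divided by its sum, 1555 instead of 2548 were lower in gel than untreated. Leaving out 1 library gave 2593 to 3127 higher and 2513 to 3075 lower in CNV against untreated, 126 to 1457 and 320 to 1758 in gel against CNV, and 1438 to 2482 and 1760 to 2647 in gel against untreated. The share of calls that were higher went from 50.4% to 62.3% (CNV against untreated) and from 47.1% to 58.8% (gel against untreated) with reads scaled to their own total, and to 63.0% in the latter with FPKM divided by its sum. Replicate numbers did not pair the libraries: deviations of same-numbered libraries correlated at -0.148 to 0.0841 over 9 pairs, and 1 of 9 libraries correlated best with its own number. The replicate block gave 3016 higher and 3032 lower, 523 and 875, and 2073 and 2394 in the 3 comparisons.

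Depth limits Aqp7, Aqp8, Aqp9 and Aqp11, which rest on 0 to 62 reads per library. The 3 libraries per group and the differing content of cornea, muscle and lens limit what the levels of the other members say of 1 tissue.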
